A study of Mus musculus with 29 samples.

Results

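Transcripts of 40 genes of DNA replication and of the step from G1 into S phase of the cell cycle were followed in the mouse melanoma line NMM (genotype NRAS mutant) through sequences of 2 cytokine stimulations. The genes were taken by their symbols from a list of replication factors, S-phase cyclins and their regulators, and they make up 40 of the 28229 genes of the count table. All 40 were among the 14935 genes that passed the filter on low counts. A gene passed where any library reached the cutoff, so all tested genes, the background used below, include some near the floor.

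The first step was 2, 6, 12 or 24 h in medium or with a cytokine, either interferon gamma at 100 ng/ml (IFNγ) or, at 10 ng/ml, transforming growth factor beta (TGFβ). Each culture was then washed with PBS and kept for 24 h in medium or in a second cytokine at the same dose. There were 7 sequences with 4 libraries each, 1 library per length of the first step: medium then medium (the medium libraries), medium then IFNγ (the IFNγ libraries), medium then TGFβ (the TGFβ libraries), the sequences in which a cytokine was withdrawn (IFNγ then medium, and TGFβ then medium), and both orders of the pair (TGFβ then IFNγ, and IFNγ then TGFβ). A further library received medium for 24 h and then a mix of both cytokines. All cultures were the same NRAS-mutant line in serum-containing IMDM, all were harvested 24 h after the wash, and the libraries differ in total culture time as well as in cytokines. The lengths of the first step stand in for replicates. Nothing in the labels says that libraries of a sequence came from independent experiments, so p-values measure no more than how these samples spread, part of which may be technical, and they speak for this cell line alone.

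Before a cell copies its DNA, the origin recognition complex, Cdc6 and Cdt1 load the MCM helicase onto replication origins, which licenses them. At the entry into S phase, cyclin E with Cdk2 and other kinases fire the origins, Cdc45 and the GINS complex join MCM to form the active helicase, and the polymerases, the sliding clamp and the factors that mature the lagging strand copy the template. Many of these genes are transcribed late in G1 by E2F factors once the retinoblastoma protein is phosphorylated. IFNγ and TGFβ are both known to slow the cycle of many cell types, TGFβ in epithelial cells through inhibitors of cyclin-dependent kinases.

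Values below are CPM, counts relative to the library size scaled by its TMM factor, always in the order of 2, 6, 12 and 24 h of the first step. Changes are log2 fold changes with their standard error (SE) from the edgeR quasi-likelihood test, and a gene rose or fell where its Benjamini-Hochberg adjusted p over 14935 genes was below 0.05. Library totals ran from 17179530 to 23668015 counts, and mitochondrially encoded transcripts took 0.596% to 1.31% of them. The medium library of 6 h stood apart from the other 3 medium libraries: all 40 genes were lower there than the mean of the others, by a median of 0.89 on the log2 scale, and 39 were lowest of the 4. Over all tested genes its differences from the other medium libraries had a standard deviation of 0.596 on the log2 scale, against 0.320 to 0.361 for the other 3. The counts of each comparison with medium alone are therefore given with it and without it. Of the melanocyte markers, Mitf (8.40 to 20.2 CPM) and Gpnmb (26.4 to 276 CPM) were present, while Sox10 and Pmel stayed below 1 CPM in every library and the other 4 listed markers were not analysed here. The 3 leukocyte markers in the table never passed 0.172 CPM. The 6 listed fibroblast and endothelium markers summed to 481 CPM in the 6 h medium library, almost all from Dcn at 461 CPM. Col1a1 and Pecam1 stayed below 1 CPM in every library. Dcn was the largest part of the sum in every library, so the sums given below mostly follow that gene.

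Promoter sequences were available for 33 of the 40 genes, as 39 windows of 250 bases before a RefSeq start on GRCm38.p6, and not for Gins1, Gins2, Gins4, Rfc2, Ccne2, Pole and Mcm4. The E2F letters TTTNNCGC, read on both strands, were in 11 of the 39 windows (28.2%) and in 4.28% of 32851 promoters of the same length. The CCAAT letters were in 61.5% against 33.8%. Letters of the cell cycle homology region (TTTGAA) were in 12.8% of the members' windows and 16.0% of all. Median GC content was 58.0% in the members' windows and 52.4% in all. Below are the 150 bases before the start for the gene with the steepest rise under IFNγ (Ccne1), for 3 licensing and helicase genes that rose (Cdc6, Orc1, Gins3) and for 2 genes that were not called (Mcm6, Cdk2). They are written 5′ to 3′ on the gene's strand, and capitals mark the E2F letters on either strand.
Ccne1, chr7:38107491-38107640, minus strand: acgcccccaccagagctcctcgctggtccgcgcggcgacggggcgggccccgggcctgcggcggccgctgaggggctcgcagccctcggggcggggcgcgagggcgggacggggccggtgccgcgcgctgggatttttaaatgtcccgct
Cdc6, chr11:98908001-98908150, plus strand: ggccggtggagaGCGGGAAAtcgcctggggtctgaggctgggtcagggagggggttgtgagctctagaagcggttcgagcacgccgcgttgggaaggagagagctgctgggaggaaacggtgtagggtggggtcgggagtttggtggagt
Orc1, chr4:108579304-108579453, plus strand: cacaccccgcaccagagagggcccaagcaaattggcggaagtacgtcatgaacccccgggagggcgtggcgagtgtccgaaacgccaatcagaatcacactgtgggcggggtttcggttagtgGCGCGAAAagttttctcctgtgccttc
Gins3, chr8:95633409-95633558, plus strand: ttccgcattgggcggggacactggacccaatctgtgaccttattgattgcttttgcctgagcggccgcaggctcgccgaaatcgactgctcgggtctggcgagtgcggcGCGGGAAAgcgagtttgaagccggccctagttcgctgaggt
Mcm6, chr1:128359706-128359855, minus strand: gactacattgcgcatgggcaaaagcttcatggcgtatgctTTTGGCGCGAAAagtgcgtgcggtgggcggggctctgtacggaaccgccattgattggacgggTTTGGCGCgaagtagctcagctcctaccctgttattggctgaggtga
Cdk2, chr10:128705052-128705201, minus strand: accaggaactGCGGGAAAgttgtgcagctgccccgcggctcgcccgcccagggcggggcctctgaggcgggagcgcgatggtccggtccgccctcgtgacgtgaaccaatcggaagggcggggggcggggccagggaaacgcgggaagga
In the Cdc6, Orc1, Gins3 and Cdk2 windows the letters stood once, beginning 138, 27, 41 and 140 bases before the RefSeq start. In the coordinates of the count table Cdc6, Orc1 and Gins3 begin further upstream, at 98907801, 108579423 and 95633453. By those coordinates their matches lie inside the genes. The Mcm6 window held them 3 times, beginning at 110, 106 and 47 bases, and the first and second of these share bases on opposite strands. The Ccne1 window held none. Of other licensing and helicase genes that rose, the 250-base windows of Cdt1, Orc6, Cdc45, Mcm10, Mcm2 and Mcm3 held none either. Those of Mcm5 and a window of Mcm7 held the letters. The printed windows thus hold them more often than the 39 windows do. A match of letters shows no bound factor, and its absence from a window of this size says nothing of one.

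IFNγ as the second stimulus raised most of the replication genes. Against the medium libraries 37 of the 40 rose and none fell, beside 22.7% of all tested genes that rose and 21.2% that fell, and the median change of the 40 was 0.49 against -0.01 over all tested genes. Without the 6 h medium library 34 rose and none fell, beside 20.4% and 18.7% of all tested genes, and the median was 0.36. Gins4, Tyms and E2f1 were the 3 whose call needed that library. In 31 of the 40 genes the 4 IFNγ libraries all lay above the 4 medium libraries, as they did in 18.1% of all tested genes. In bulk RNA, more cells in S phase and more of these transcripts per cell cannot be told apart. The mitochondrial share separated the same groups, at 0.676% to 0.814% of counts in the IFNγ libraries and 0.841% to 1.24% in the medium libraries. So did the summed fibroblast and endothelium markers, at 38.0 to 70.4 CPM and 101 to 481 CPM. Most of that sum was Dcn, at 36.2, 49.2, 28.0 and 26.0 CPM under IFNγ and 104, 461, 81.2 and 81.1 CPM in medium. Of the 5 tested markers 3 fell and none rose, and Pdgfra was not called (-0.08, SE 0.137). The part of the mitochondrial share and of these markers in the rise was not tested.

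**Figure D1:**
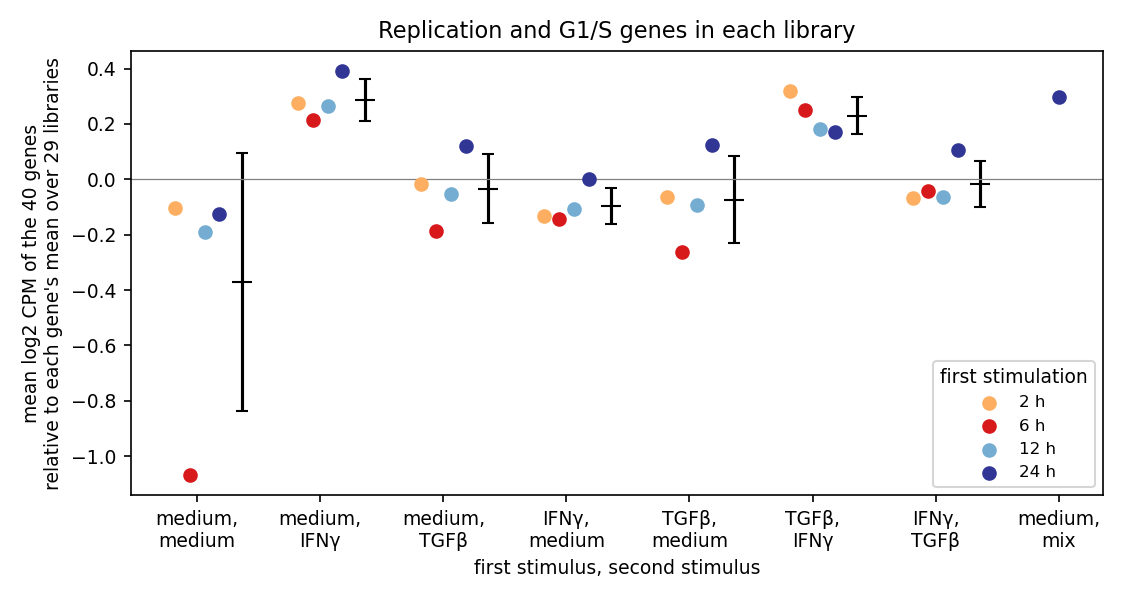
Mean log2 CPM of the 40 genes in each library, relative to each gene's own mean over the 29 libraries, by stimulation sequence; points are libraries coloured by length of the first step, and bars give the mean ± SD of the 4 libraries. The sequences ending in IFNγ (0.286 ± 0.0749 and 0.230 ± 0.0675) lay above the other sequences of 4 libraries. The mix library lay at 0.299 and the 6 h medium library at -1.07.

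The plot of the mean level by library shows this order. Relative to each gene's own mean over 29 libraries, the 40 genes averaged 0.29 ± 0.07 log2 (SD, n = 4) in the IFNγ libraries and 0.23 ± 0.07 after TGFβ then IFNγ. The sequences without IFNγ at the end averaged -0.02 ± 0.08 (IFNγ then TGFβ), -0.03 ± 0.13 (TGFβ), -0.07 ± 0.16 (TGFβ then medium) and -0.10 ± 0.07 (IFNγ then medium). The libraries of these 4 sequences overlap in range. The medium libraries averaged -0.37 ± 0.47, with the 6 h library at -1.07 and the other 3 between -0.19 and -0.10. As a share of all counts, the 40 genes took 0.343% ± 0.0158 of the IFNγ libraries, 0.146% of the 6 h medium library and 0.274% to 0.292% of the other medium libraries.

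The cyclins that open S phase moved most. Ccne1, cyclin E1, which activates Cdk2 at the G1/S border, stood at 20.9, 11.8, 23.1 and 25.7 CPM in the medium libraries and at 88.8, 79.9, 72.8 and 90.2 CPM in the IFNγ libraries. Every IFNγ library was far above the highest medium library, and the medium values at 2, 12 and 24 h lay close together. The rise was 2.03 (SE 0.213, edgeR adjusted p = 1.35e-07), and 1.85 (SE 0.212, adjusted p = 5.05e-07) without the 6 h medium library. Ccne2, cyclin E2, ran from 9.00, 2.54, 6.07 and 7.59 CPM to 13.5, 11.3, 12.6 and 18.4 CPM, again without overlap, a rise of 1.15 (SE 0.211, adjusted p = 0.00013), or 0.94 (SE 0.19) without the 6 h medium library. Part of its exons (17.4%) overlap Ints8 on the other strand, whose counts are larger, and the strand setting of the counting is not given in the sources used here. Their kinase Cdk2 did not pass the test, at 47.9, 40.9, 50.1 and 44.6 CPM in medium and 50.8, 51.8, 51.0 and 46.9 CPM under IFNγ (log2 0.13, SE 0.0649, edgeR adjusted p = 0.116, and 0.08 without the 6 h medium library).

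Both E2F genes of the list are activators of S-phase transcription. E2f2 was at 7.86, 2.66, 6.71 and 6.64 CPM in medium and 12.7, 10.9, 10.3 and 8.17 CPM under IFNγ, which do not overlap, and rose by 0.83 (SE 0.183), or 0.59 (SE 0.137) without the 6 h medium library. E2f1 changed less, from 65.7, 50.3, 62.3 and 63.6 CPM to 71.8, 82.5, 74.5 and 73.0 CPM. Its rise of 0.32 (SE 0.0986, edgeR adjusted p = 0.011) was 0.23 with an adjusted p of 0.0621 without the 6 h medium library.

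All 4 licensing genes rose. Cdc6, the ATPase that recruits MCM to origins, stood at 30.1, 8.20, 27.8 and 29.0 CPM in medium and 45.7, 42.5, 42.7 and 53.5 CPM under IFNγ. No IFNγ library came near the medium range, and the change was 0.99 (SE 0.197), or 0.72 (SE 0.123) without the 6 h medium library. Orc1, the largest subunit of the origin recognition complex, is a low transcript that went from 5.44, 2.83, 5.28 and 5.32 CPM to 9.19, 8.45, 8.41 and 11.6 CPM, a rise of 0.98 (SE 0.175), or 0.80 (SE 0.16) without the 6 h medium library. Orc6, another subunit of that complex, rose by 0.44 (SE 0.0738), or 0.39 without the 6 h medium library, and Cdt1, which delivers MCM to the origin, by 0.41 (SE 0.139). For Cdt1 the smaller change of 0.20 without the 6 h medium library still passed (edgeR adjusted p = 0.0352).

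Of the MCM genes, 6 of 7 rose. Mcm2 to Mcm7 encode the 6 subunits of the ring-shaped helicase, and they changed by 0.35 (Mcm6) to 0.76 (Mcm5, SE 0.129). Mcm5 stood at 90.7, 41.9, 83.7 and 91.4 CPM in medium and at 120, 120, 133 and 141 CPM under IFNγ, with a clear gap between the groups. Its rise was 0.56 (SE 0.0701) without the 6 h medium library, and those of Mcm4 and Mcm7 went from 0.47 and 0.39 to 0.31 and 0.21. Mcm6 was at 259, 104, 238 and 251 CPM against 269, 237, 260 and 304 CPM. Those ranges overlap, and its difference did not pass (log2 0.35, SE 0.149, edgeR adjusted p = 0.0608), nor did it without the 6 h medium library (0.12, adjusted p = 0.18). Mcm10 is not part of the ring, but links the helicase to polymerase alpha when origins fire. It had the largest change of the 7, from 76.0, 28.7, 73.1 and 82.6 CPM to 132, 126, 138 and 151 CPM, a rise of 1.09 (SE 0.166), or 0.84 (SE 0.0808) without the 6 h medium library.

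Cdc45 and the GINS subunits, which turn loaded MCM into a working helicase, did not move as a block. Cdc45 went from 37.2, 16.5, 36.3 and 39.6 CPM to 63.4, 53.5, 57.2 and 61.9 CPM, a rise of 0.89 (SE 0.131), or 0.68 without the 6 h medium library. Gins3 went from 7.63, 4.56, 8.98 and 7.70 CPM to 13.0, 11.5, 12.9 and 16.4 CPM, a rise of 0.90 (SE 0.133), or 0.78 without it. Neither gene's groups overlap. Gins1 rose by 0.37 (SE 0.0994, and 0.27 without that library) and Gins4 by 0.26 (SE 0.0975), the latter only with the 6 h medium library (0.11, edgeR adjusted p = 0.191 without it). Gins2 was higher under IFNγ at 6 h alone, at 26.4, 14.0, 24.2 and 24.5 CPM in medium and 23.1, 24.8, 24.1 and 21.3 CPM under IFNγ, and was not called (0.06, adjusted p = 0.719, and -0.12, adjusted p = 0.226, without the 6 h medium library). However, 67.3% of its exon bases are shared with Gse1 on the other strand, so its counts are uncertain.

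The 6 polymerase and primase genes all rose, by 0.44 to 0.72 with a median of 0.49. All 6 did so without the 6 h medium library as well, by less, with a median of 0.30. Pola2, the regulatory subunit of polymerase alpha, stood at 61.4, 36.7, 62.5 and 62.1 CPM in medium and 91.9, 87.4, 87.8 and 96.9 CPM under IFNγ. With the 3 close medium values far below the IFNγ libraries, its rise of 0.72 had a small SE (0.0884, edgeR adjusted p = 1.01e-06), and it was 0.59 (SE 0.0575) without the 6 h medium library. Pole, the catalytic subunit of the leading-strand polymerase epsilon, rose by 0.68 (SE 0.141) and its partner Pole2 by 0.46 (SE 0.123). Pold1, the catalytic subunit of the lagging-strand polymerase delta, rose by 0.50, Pola1, the catalytic subunit of polymerase alpha, by 0.48, and Prim1, the primase that lays the RNA primers, by 0.44. These changes were 0.45 for Pole, 0.32 for Pole2, 0.24 for Pold1, 0.28 for Pola1 and 0.23 for Prim1 without the 6 h medium library. Prim1 and Pola1 overlapped between the groups.

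All 5 genes of the clamp and its loader rose. Pcna, the ring that keeps polymerases on DNA, went from 119, 75.3, 105 and 108 CPM to 158, 160, 143 and 171 CPM, a rise of 0.64 (SE 0.106), or 0.52 without the 6 h medium library. Rfc3, a loader subunit, was at 21.1, 16.7, 18.9 and 16.6 CPM in medium and 27.5, 28.4, 33.2 and 30.0 CPM under IFNγ. Its 6 h medium value was not the lowest of the 4, the only such case among the 40 genes, and its rise of 0.70 (SE 0.074, edgeR adjusted p = 1.6e-07) was almost as large without that library (0.66, SE 0.0782). Rfc5 rose by 0.84 (SE 0.112), or 0.68 without it. The loader subunits Rfc2 and Rfc4 rose by 0.28 and 0.32 with overlapping groups, or by 0.17 and 0.16 without the 6 h medium library. Rfc4 and Rfc5 share exon bases with highly counted genes of the other strand, Eif4a2 and Wsb2.

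Genes of single-strand binding and of the lagging strand followed, 4 of 4. Fen1, the nuclease that trims primer flaps, went from 49.96, 29.1, 45.4 and 51.2 CPM to 85.9, 85.5, 78.0 and 96.2 CPM. This is a rise of 0.98 (SE 0.129) without any overlap, or 0.84 (SE 0.115) without the 6 h medium library. Rpa2 and Rpa1, subunits of the protein that coats single-stranded DNA, rose by 0.65 and 0.38, or 0.51 and 0.29 without it. Lig1, the ligase that seals the fragments, rose by 0.45 (SE 0.107), or 0.27 (SE 0.0502) without it.

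For deoxynucleotide supply, Rrm2 and Rrm1 encode the ribonucleotide reductase and Tyms the thymidylate synthase. Rrm2, the subunit whose level follows S phase, was at 103, 33.8, 93.3 and 108 CPM in medium and 149, 135, 143 and 165 CPM under IFNγ, a rise of 0.85 (SE 0.172), or 0.59 (SE 0.0874) without the 6 h medium library. Rrm1 rose by 0.47 (SE 0.111), or 0.29 (SE 0.0619) without it. Tyms passed only with the 6 h medium library (0.28, edgeR adjusted p = 0.0414, and 0.14, adjusted p = 0.226, without it). Uhrf1, which reads hemimethylated DNA behind the fork and recruits the maintenance methyltransferase, rose by 0.73 (SE 0.134), or 0.52 (SE 0.0689) without that library.

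**Figure D2:**
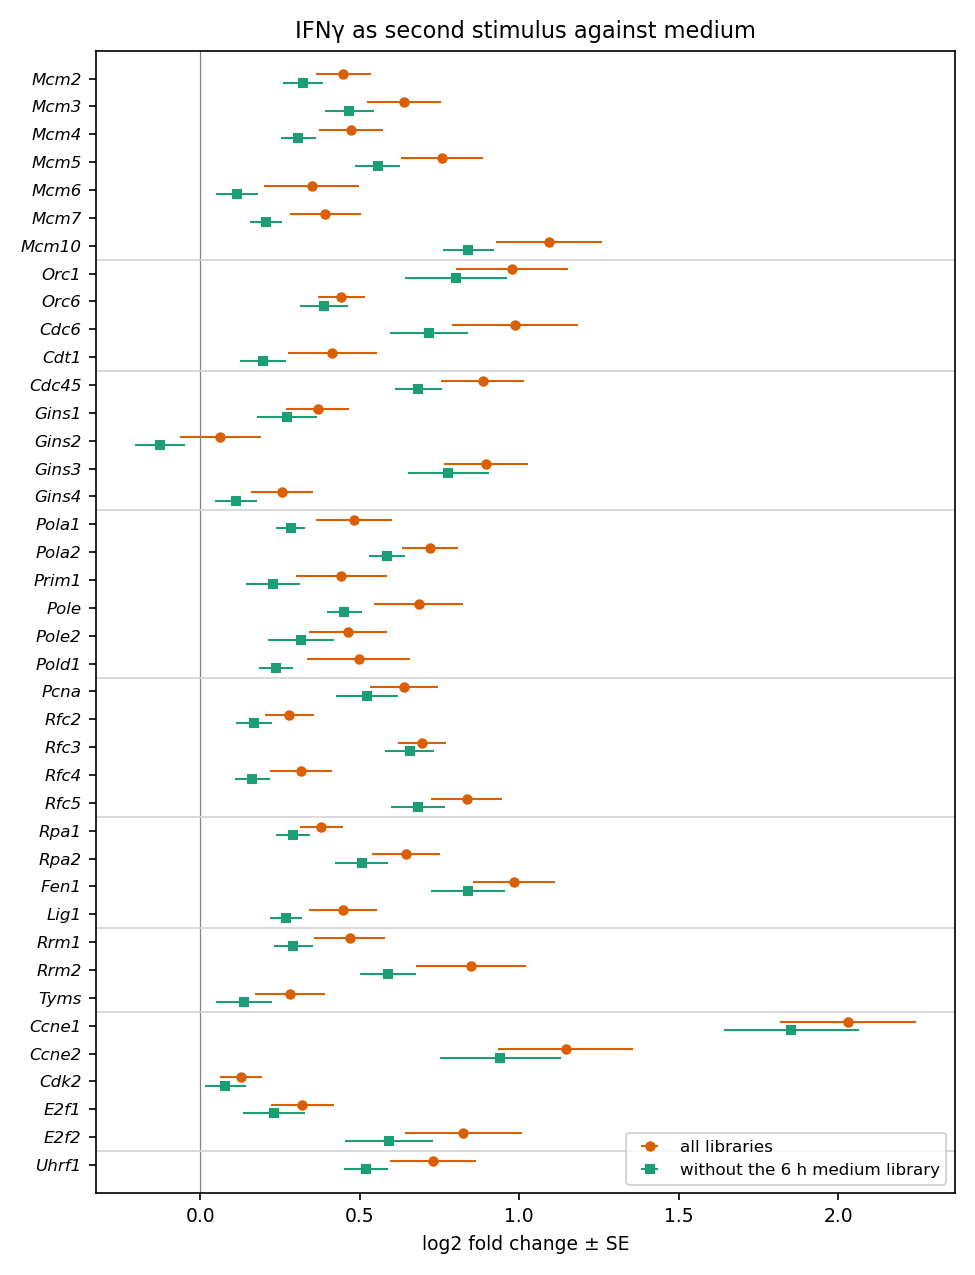
Log2 fold change ± SE of each of the 40 genes for IFNγ as second stimulus against medium, with all libraries (circles) and without the 6 h medium library (squares), grouped by role. Estimates lie further left in the second fit for every gene, Ccne1 stands farthest to the right (2.03 and 1.85), and Gins2 lies at 0.06 and -0.12.

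Every one of the 40 estimates was lower without the 6 h medium library, as the plot of fold changes with and without it shows, and that of Gins2 went below 0. The rise was also present in each length taken alone. The median difference between the IFNγ and the medium library of the same length was 0.30 at 2 h (37 of 40 genes higher), 1.20 at 6 h (40 of 40), 0.42 at 12 h (38 of 40) and 0.44 at 24 h (39 of 40), with 1 library on each side. Over all tested genes these medians lay between 0 and 0.019.

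Per length of exon, the 40 genes span a wide range of levels. In the medium libraries the highest were Mcm7 (47.4 ± 11.9 CPM per kb, SD, n = 4), Mcm6 (45.6 ± 15.7) and Pcna (42.5 ± 7.84), which do not differ beyond their spread. The lowest were E2f2 (1.22 ± 0.466 CPM per kb), Orc1 (1.36 ± 0.362) and Ccne2 (1.80 ± 0.795), again within each other's spread. Ccne1 stood at 7.66 ± 2.27 CPM per kb in medium, near Cdk2 (7.38 ± 0.645). Under IFNγ, Ccne1 reached 31.2 ± 3.06 CPM per kb, while Cdk2 remained at 8.06 ± 0.35. Ccne1 then lay near Mcm5 (32.2 ± 2.58).

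**Figure D3:**
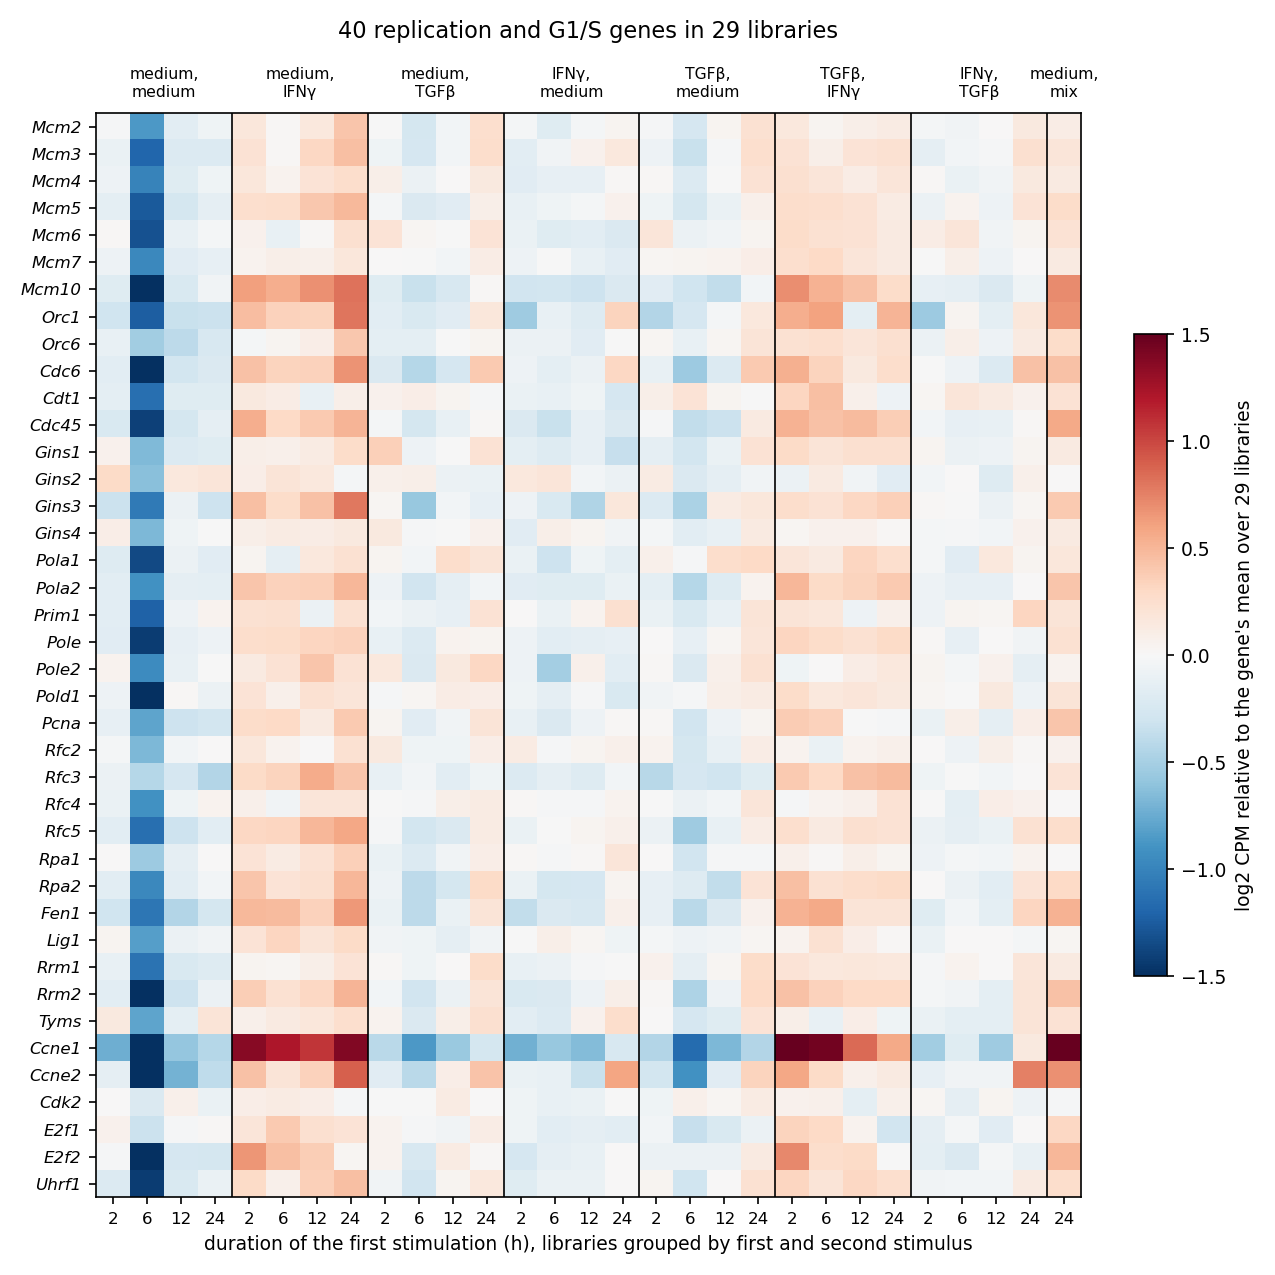
Log2 CPM of the 40 genes (rows) in the 29 libraries (columns), relative to each gene's mean over all libraries; columns are grouped by sequence and ordered by length of the first step, and values beyond the ends of the colour scale take the end colour. The 6 h medium column is low for nearly all genes, the columns ending in IFNγ are high, and the Ccne1 row has the strongest contrast.

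TGFβ as the second stimulus gave smaller differences, and how many passed depended on the medium libraries. Against medium, 14 of the 40 rose and none fell, beside 11.7% of all tested genes, with a median of 0.31. With the 6 h medium library left out 4 of 40 rose, Pola1 (0.32), Rrm1 (0.26), Uhrf1 (0.20) and Mcm4 (0.17), and Gins2 fell. Of all tested genes 10.4% rose and 10.6% fell in that fit, so the share of members that rose was close to the background. The median of the members was 0.14. Pola1 was at 124, 117, 144 and 138 CPM in the TGFβ libraries, above its 105, 47.2, 113 and 107 CPM in medium at every length. Its rise of 0.52 (SE 0.119) was 0.32 (edgeR adjusted p = 3.93e-05) without the 6 h medium library. For Ccne1 the TGFβ libraries read 26.2, 19.0, 23.5 and 28.9 CPM, which overlap the medium libraries. The count also moved with other libraries. It was 23 without the 2 h medium library and 5 to 8 without any 1 of the 4 TGFβ libraries. Without all libraries of 6, 12 or 24 h it was 7, 2 and 1. It was 3 without the duration factor and 1 in a fit on the groups compared. The share of all tested genes called in these fits is not given here.

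When TGFβ came first and was followed by medium, 11 of 40 rose and none fell, beside 14.5% of all tested genes. With the 6 h medium library left out 7 rose, by 0.36 (Pola1), 0.29 (Orc6), 0.26 (Rrm1), 0.22 (Uhrf1), 0.21 (Cdt1) and 0.17 (Pole and Mcm7), and Gins2 fell, beside 13.5% and 13.2% of all tested genes. The share of members that rose is then close to the background. Pola1 again had the largest rise among them, 0.56 (SE 0.119), and 0.36 without the 6 h medium library. Orc6 rose by 0.34 (SE 0.0739) and by 0.29 without it. The count was 19 without the 2 h medium library, and 6 and 5 without the 12 and 24 h libraries of TGFβ then medium. It was 3 and 4 without all libraries of 12 or 24 h, and 5 without the duration factor. For these fits the share of all tested genes is not given here.

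After IFNγ was withdrawn, no member passed the test. In IFNγ then medium against medium alone 0 of 40 were called by edgeR, beside 0.79% of all tested genes called in either direction, with 18 at an unadjusted p below 0.05 and 3 called by DESeq2. Without the 6 h medium library 0 were called, 9 had an unadjusted p below 0.05, and the median was 0.07, against 0.22 with it. Of the 40 estimates 38 were above 0 with that library and 30 without it. Leaving out the 2 h medium library instead gave 7 calls, and leaving out all libraries of 2 h gave 1. The share of all tested genes called in these 2 fits and by DESeq2 is not given here. Ccne1 was at 21.0, 23.3, 22.1 and 29.3 CPM after withdrawal, where the 2, 12 and 24 h medium libraries had 20.9, 23.1 and 25.7 CPM. Mcm10 was at 70.6, 70.9, 69.5 and 73.9 CPM, Fen1 at 47.5, 52.7, 52.0 and 64.6 CPM and Pola2 at 61.3, 60.8, 60.6 and 64.2 CPM. All of these lie below every IFNγ library. Other genes overlapped the IFNγ libraries, such as Ccne2 at 9.23, 9.16, 7.86 and 14.9 CPM after withdrawal against 11.3 to 18.4 CPM under IFNγ.

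The same contrast can be read without any medium-alone library. Between IFNγ present for the last 24 h and IFNγ given first and withdrawn, 23 of 40 were higher with IFNγ present and none lower, beside 20.8% of all tested genes. The mitochondrial share was 0.676% to 0.814% of counts with IFNγ present and 1.03% to 1.31% after withdrawal, and the fibroblast and endothelium markers summed to 38.0 to 70.4 CPM and 128 to 188 CPM, also without overlap. Their part in these differences was not tested. In 25 genes the 2 groups of libraries did not overlap, with IFNγ present the higher, as in 17.8% of all tested genes. Ccne1 differed by 1.79 (SE 0.21), Mcm10 by 0.94 (SE 0.165), Fen1 by 0.68 (SE 0.128), Cdc45 by 0.66 (SE 0.13) and Gins3 by 0.62 (SE 0.131). The 6 h medium library is in neither group, but it adds to the spread that the fit estimates over all libraries, and 33 of 40 passed without it, beside 23.0% of all tested genes. Leaving out all libraries of 2, 12 or 24 h gave 15, 13 and 14, and the share of all tested genes in those fits is not given here.

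IFNγ against TGFβ, both as second stimulus after medium, gave 17 of 40 higher under IFNγ and none lower, beside 21.1% of all tested genes. Leaving the 6 h medium library out of the fit gave 25, beside 23.1%, and leaving out all libraries of 12 h gave 11. For the latter fit the share of all tested genes is not given here. The fibroblast and endothelium markers summed to 86.5 to 178 CPM under TGFβ, above the 38.0 to 70.4 CPM under IFNγ, and the mitochondrial shares overlapped (0.717% to 1.21% under TGFβ). Their part was not tested. Ccne1 differed by 1.77 (SE 0.21), Mcm10 by 0.85, Gins3 by 0.65, Fen1 by 0.59, Orc1 by 0.58 and Cdc6 by 0.57. Among those not called in either fit, Pola1 overlapped between the cytokines, at 124, 110, 135 and 141 CPM under IFNγ and 124, 117, 144 and 138 CPM under TGFβ.

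In cells given TGFβ first, IFNγ raised part of the list, and how many genes passed depended on the libraries in the fit. Of the 40 genes 14 rose against TGFβ then medium and none fell, beside 18.8% of all tested genes, and 28 rose without the 6 h medium library, beside 21.1%. The mitochondrial share overlapped between these groups, at 0.624% to 0.936% with IFNγ and 0.927% to 1.23% without, and the fibroblast and endothelium markers summed to 47.1 to 104 CPM and 77.6 to 178 CPM, whose part was not tested. Ccne1 stood at 25.5, 15.5, 21.6 and 25.5 CPM after TGFβ then medium and at 109, 94.4, 62.5 and 51.2 CPM after TGFβ then IFNγ, a rise of 1.87 (SE 0.213). All 4 of the latter are above all 4 of the former, and the 2 longer ones are the lower ones. Mcm10 rose by 0.71 (SE 0.165), Rfc3 by 0.69 (SE 0.0742), Cdc45 by 0.59 (SE 0.13), Fen1 by 0.56 (SE 0.128) and Pola2 by 0.56 (SE 0.0882). The count was 9 and 8 without the 2 and 6 h libraries of TGFβ then medium, and 7 without the 6 h library of TGFβ then IFNγ. It was 7 and 9 without all libraries of 2 or 12 h, and 8 without the duration factor. The share of all tested genes in these fits is not given here, so these counts cannot be set against a background. By length, the median difference of the members was 0.31, 0.40, 0.20 and 0.01 at 2, 6, 12 and 24 h, with 1 library per side.

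Between the 2 orders of the cytokines part of the genes differed, and how many passed depended on the libraries in the fit. With IFNγ last against TGFβ last, 10 of 40 were higher and none lower, beside 16.4% of all tested genes, and 23 of 40 without the 6 h medium library, beside 19.2%. The mitochondrial share, 0.624% to 0.936% against 0.977% to 1.25%, and the sum of fibroblast and endothelium markers, 47.1 to 104 CPM against 139 to 187 CPM, separated the 2 orders too, and their part was not tested. Ccne1 differed by 1.46 (SE 0.208). After IFNγ then TGFβ it was at 24.1, 30.4, 23.9 and 38.3 CPM, below each library of the reverse order. Mcm10 differed by 0.63 (SE 0.164), Orc1 by 0.52, Cdc45 by 0.52, Pola2 by 0.46 and Rfc3 by 0.43. The median over the 40 was 0.20. In the libraries of 2, 6, 12 and 24 h it was 0.30, 0.25, 0.22 and 0.09, against -0.002 to 0.005 over all tested genes. In the same order 37, 39, 34 and 24 members were higher with IFNγ last. Each of these rests on 1 library per side. The count was 5 without the 2 or the 6 h library of TGFβ then IFNγ, 5 and 6 without the 2 and 12 h libraries of IFNγ then TGFβ, 4 and 6 without all libraries of 2 or 12 h, and 5 without the duration factor. Each of these counts is a smaller share of the 40 than the 16.4% of all tested genes in the full fit. The share of all tested genes in these same fits is not given here. Whether the members fell below the background of those fits therefore cannot be read from the counts.

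The first stimulus was then compared under the same final cytokine. For TGFβ against medium before IFNγ, 0 of 40 were called by edgeR and 0 by DESeq2, with 1 at an unadjusted p below 0.05, where 8.64% of all tested genes were called higher and 7.19% lower. Without the 6 h medium library Pola1 rose and Rfc5, Rpa1 and Lig1 fell, all by at most 0.22, beside 11.1% of all tested genes called higher and 9.75% lower. Leaving out all libraries of 6 h gave 2 calls, and the share of all tested genes in that fit is not given here. For IFNγ against medium before TGFβ, edgeR called 0 of 40 and DESeq2 called 0, with 0 at an unadjusted p below 0.05, beside 0.0937% of all tested genes called in either direction. The test of the difference between the IFNγ effect after TGFβ and that after medium called 0 of 40 by edgeR and 0 by DESeq2, beside 0.395% of all tested genes called in either direction. All 40 interaction estimates were below 0 (median -0.31, 15 at an unadjusted p below 0.05). Without the 6 h medium library the median was -0.14 and 6 were above 0. For Ccne1 the difference was -0.16 (SE 0.295).

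Simultaneous IFNγ and TGFβ was measured in 1 library and cannot be tested. There Ccne1 stood at 120 CPM, above all 4 IFNγ libraries, and Mcm10 at 140 CPM, Pcna at 174 CPM and Cdc45 at 64.7 CPM. Of the 40 genes, 34 lay above all 4 medium libraries and 6 within their range. Against the 4 IFNγ libraries 30 lay within the range, 4 above it and 6 below it. The same counts were not taken over all tested genes, so none of these counts has a background to be read against. The median difference was -0.12 from the 24 h IFNγ library and 0.34 from the 24 h medium library.

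The 40 genes varied together over the 29 libraries. All 780 pairs of them had a Pearson correlation of log2 CPM above 0, with a median of 0.791, and the libraries share both the cytokines and the low 6 h medium library. Without that library 745 pairs were above 0 and the median was 0.615. With the mean of the other members, Rrm2 correlated at 0.990, Uhrf1 and Mcm5 at 0.979 and Mcm4 at 0.972, while Gins2 (0.498), Cdk2 (0.503), E2f1 (0.659) and Rfc3 (0.694) were least like the rest. Ccne1 reached 0.773. Without the 6 h medium library Rrm2 stayed highest (0.974), Ccne1 was at 0.909, E2f1 at 0.706 and Rfc3 at 0.806, and the lowest were Gins2 (-0.0658), Cdk2 (0.248) and Cdt1 (0.370). Outside the list, the genes most like its mean over the 29 libraries included Birc5 (r = 0.979, and 0.950 without the 6 h medium library), Fbxo5 (0.970), Cip2a (0.970) and Cep55 (0.964), which were at 0.956, 0.919 and 0.919 without it.

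Values after TGFβ then IFNγ were also set against the length of the TGFβ step, which was done after the values were seen. No member passed the test of a trend with it. In the libraries of 2, 6, 12 and 24 h the median difference between IFNγ and medium in cells given TGFβ first was 0.31, 0.40, 0.20 and 0.01, and 37, 40, 38 and 20 of the 40 members were higher with IFNγ. Against medium before IFNγ, TGFβ before IFNγ gave 26, 21, 11 and 4 of 40 members higher. Each of these rests on 1 library per side. Over all tested genes the median differences by length lay between -0.012 and 0.006 in these 2 comparisons. The share of all tested genes that was higher at each length was not taken.

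The slope of Ccne1 was -0.32 per doubling of the TGFβ step (SE 0.102, edgeR adjusted p = 0.156) and that of E2f1, at 79.3, 77.4, 65.4 and 51.9 CPM, -0.17 (SE 0.0492, adjusted p = 0.128). Neither passed. In this fit, with a slope per sequence and 14 residual degrees of freedom over 13973 genes, 0 of 40 members were called in TGFβ then IFNγ, 2 had an unadjusted p below 0.05, and 0.0859% of all genes were called rising and 0.122% falling. For the difference to the slope in medium then IFNγ, 0 of 40 members and 0% of all genes were called, with 2 members at an unadjusted p below 0.05. DESeq2 was not run on the slopes.

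**Figure D4:**
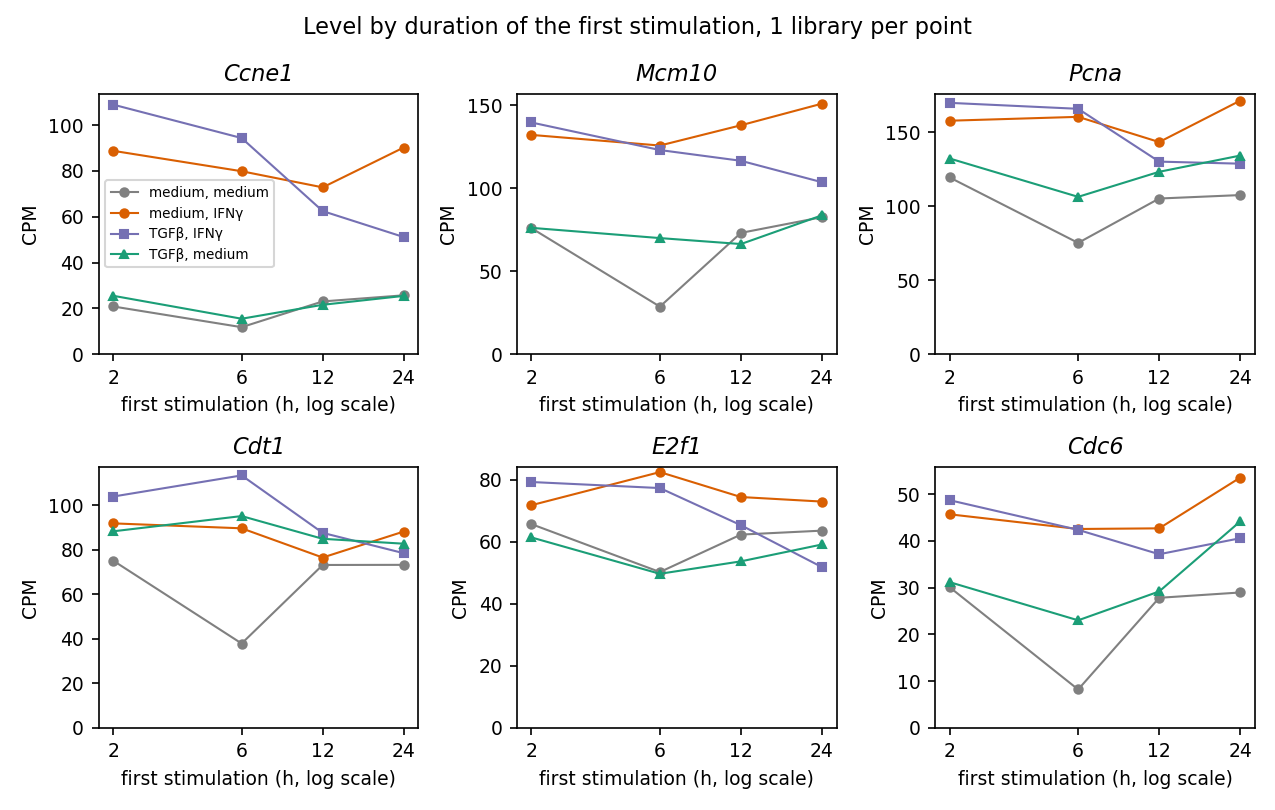
CPM of 6 genes against the length of the first step (log scale) in 4 sequences, 1 library per point; lines join libraries of a sequence. Ccne1 under TGFβ then IFNγ reads 109 CPM at 2 h and 51.2 CPM at 24 h, while it lies between 72.8 and 90.2 CPM under medium then IFNγ.

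Other genes of the same pathway were taken from lists made together with the members. Among 46 further replication genes, 36 rose and 1 fell for IFNγ as second stimulus against medium (34 and 2 without the 6 h medium library), beside 22.7% and 21.2% of all tested genes, with a median of 0.47, or 0.29 without that library. Recql4, a helicase needed to start replication, rose by 1.04 (SE 0.159), Exo1, an exonuclease, by 0.93 (SE 0.165) and Clspn, which links the fork to the checkpoint, by 0.90 (SE 0.153). At the other end, Pole4, a small subunit of polymerase epsilon, rose by 0.24, and Orc3, an origin recognition subunit, fell by 0.23 (edgeR adjusted p = 0.0353, and 0.059 without the 6 h medium library).

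Among the 25 tested genes that control the G1/S step, 15 rose and 3 fell (14 and 3 without the 6 h medium library), with a median of 0.32, or 0.29 without that library, beside the same shares of all tested genes. Rbl1, the pocket protein p107, rose by 1.04 (SE 0.114), Myc by 1.00 (SE 0.123), Cdk6, a partner of the D cyclins, by 0.89 (SE 0.105) and E2f8, a repressing E2F, by 0.89 (SE 0.187). Ccnd1, cyclin D1, rose by 0.69 (SE 0.127). Of the inhibitors of cyclin-dependent kinases, Cdkn1b (p27) fell by 0.49 (SE 0.0686), while Cdkn1a (p21) rose by 0.37 (SE 0.0968). Tfdp2, a dimer partner of E2F, fell by 0.58 (SE 0.0941). All of these kept their call without the 6 h medium library.

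Of 22 mitosis genes 17 rose and none fell (16 and 1 without the 6 h medium library), beside 22.7% and 21.2% of all tested genes, with a median of 0.42, or 0.23 without that library. Top2a, topoisomerase II alpha, rose by 0.85, Birc5 (survivin) by 0.73, Foxm1, the transcription factor of late cycle genes, by 0.71 and Aurkb, aurora kinase B, by 0.65. Cdc20 and Tpx2 rose by 0.37 and 0.34. Aurkb, Cdc20 and Tpx2 changed by 0.43, 0.21 and 0.21 without the 6 h medium library. Mki67, the gene of the Ki-67 antigen, rose by 0.45 (SE 0.168, edgeR adjusted p = 0.034) but did not pass without the 6 h medium library (0.24, adjusted p = 0.173). As a check of the cytokine itself, the IFNγ targets Irf1 and Gbp2 rose by 3.72 and 3.74, and Smad7, a target of TGFβ, differed by -0.01 under IFNγ and rose by 0.61 under TGFβ.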

How the data were processed

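Stranded mRNA libraries of 29 NMM cultures were sequenced, per the labels' protocols. The values are raw read counts per gene that the authors deposited without normalisation. HISAT, with no version, and GRCm38 are named per the submitters' processing notes, while counting tool, annotation and strand setting were not stated there or in the labels. Of the 40 members 13 share exon bases with a gene of the other strand, and for 8 such a gene's highest count was over 10% of theirs.

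Columns were matched to samples by name. Counts were fitted in R 4.3.3 with edgeR 4.0.16 (filterByExpr by group, minimum count 10, TMM factors, glmQLFit and glmQLFTest) over all 29 libraries, with a term per sequence, a factor for the length of the first step and 18 residual degrees of freedom. As the mix library formed a group of its own, a gene passed the filter where any library reached the cutoff. All tested genes thus include some near the floor, such as Col1a1. The trend fit left out the mix library and tested 13973 genes. There were 11 contrasts, with Benjamini-Hochberg adjustment over 14935 genes in each. SE is the log2 fold change over the root of F, and log2 CPM were taken with prior count 2. Several contrasts share the medium or IFNγ libraries and are not independent. Libraries of a sequence differed by more than counting noise (lowest chi-square per degree of freedom 3.97). Deviations from the sequence means correlated between libraries of the same length by -0.0409 to 0.398. Alternatives were DESeq2 1.42.0, RLE factors, no count filter, no duration factor, a fit on the groups compared and each library or length left out. Levels per kb used exon unions of GENCODE M21.

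The members, the gene lists and the rule for other named genes (per list, of those called for IFNγ as second stimulus, the 4 highest and 2 lowest, plus Cdkn1a, Cdkn1b, Ccnd1, Myc and Mki67, the cytokine checks, and the 6 genes most like the members' mean) were chosen with earlier results of these data known. Trends with the length of the first step, and correlations without the 6 h medium library, were added after seeing the data. The fit was tested on simulated counts. A few genes picked by the rule for named genes are not reported here.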

Additional observations from a re-analysis of the deposited data

Results flagged for a closer look

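Of 287 groups of 4 libraries examined (the 40 members and their mean deviation in 7 sequences), 35 had a highest or lowest library whose gap to the other 3, over the group's range, passed Dixon's critical value; chance flags about 1 in 20 groups. The 6 h medium library accounted for 18 of the 35. It lay below the other medium libraries in mean deviation (-1.07 log2) and for Mcm3 (63.3 CPM), Mcm4 (77.9 CPM), Mcm5 (41.9 CPM), Mcm6 (104 CPM), Mcm7 (131 CPM), Orc1 (2.83 CPM), Cdc6 (8.20 CPM), Cdt1 (37.9 CPM) and Cdc45 (16.5 CPM). The same was seen for Pola1 (47.2 CPM), Pola2 (36.7 CPM), Pole (25.4 CPM), Pold1 (18.1 CPM), Rfc2 (22.6 CPM), Rpa2 (11.3 CPM), Rrm1 (106 CPM) and Uhrf1 (48.6 CPM). In that library mitochondrially encoded transcripts took 1.24% of counts, near the top of the range over all libraries, and Dcn stood at 461 CPM; their part in the low values was not tested.

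The 24 h library of IFNγ then TGFβ was the highest of its 4 for the mean deviation (0.11 log2), Rfc5 (47.3 CPM), Tyms (42.8 CPM), Ccne2 (16.7 CPM) and Uhrf1 (144 CPM). Other libraries of 24 h were high for Orc1 after medium then TGFβ (7.53 CPM), for Cdc6 (41.9 CPM) and Rpa1 (79.2 CPM) after IFNγ then medium, and for E2f2 after TGFβ then medium (8.79 CPM). At 12 h, Prim1 was low under medium then IFNγ (27.5 CPM), Lig1 low (123 CPM) and Cdk2 high (51.8 CPM) under medium then TGFβ, and Orc1 (6.03 CPM) and Cdk2 (43.1 CPM) low under TGFβ then IFNγ. At 6 h, Rpa1 was low after TGFβ then medium (57.4 CPM) and Rfc2 low after TGFβ then IFNγ (33.5 CPM), and at 2 h Rrm1 was high after TGFβ then IFNγ (266 CPM). No member passed the test of a difference between the IFNγ effects after TGFβ and after medium.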

How the results depend on the processing

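The direction of change held for all members under every alternative tried where a member was called in the full fit: of these values 1793 stayed past the threshold and 413 did not, and 0 changed sign. Counts of called members moved by over 1.5 times in some settings. Except for the fit without the 6 h medium library, the share of all tested genes called in these settings is not given here. Without the replicate block for duration, 5 were called for cytokine order, 8 for IFNγ after TGFβ, 5 for TGFβ first and 3 for TGFβ second, and no other count moved by that much, while the lengths pair the libraries only weakly. Fitting only the groups compared gave 1 call each for TGFβ before IFNγ, TGFβ first and TGFβ second. DESeq2 called 3 for IFNγ first. Leaving out a library or a length gave 31 to 38 calls for IFNγ second, 1 to 23 for TGFβ second, 0 to 7 for IFNγ first, 3 to 19 for TGFβ first, 0 to 4 for TGFβ before IFNγ, 0 to 0 for IFNγ before TGFβ, 4 to 23 for cytokine order, 11 to 25 for IFNγ against TGFβ, 7 to 28 for IFNγ after TGFβ, 13 to 33 for IFNγ present against withdrawn and 0 to 0 for the interaction. Both trend tests gave 0 calls in each such fit. The causes were not tested. With 4 libraries per sequence, the members' SE for IFNγ second ran from 0.0649 to 0.213 on the log2 scale, which limits the differences that could be detected.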

Other observations

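Within a sequence, the mean log2 CPM of the 12 and 24 h libraries was set against that of the 2 and 6 h libraries, as a description without a test. Members were more often higher in the longer ones: 38 of 40 in medium alone (median 0.42, with the low 6 h library on the shorter side), 37 in TGFβ then medium (0.15), 32 in medium then TGFβ (0.14), 32 in IFNγ then TGFβ (0.06), 31 in medium then IFNγ (0.11) and 31 in IFNγ then medium (0.09). In TGFβ then IFNγ 13 of 40 were higher in the longer ones, with a median of -0.06. The median over all tested genes lay between -0.01 and 0.01 in these 7 sequences.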
